A study of Mus musculus with 3 samples.

Results

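The solute carriers, genes whose symbols start with Slc, were examined on arrays of mouse embryonic stem (ES) cells during overexpression of the transcription factor Gata6, which drives the primitive endoderm, an extraembryonic layer of the early embryo. Members were chosen by symbol and signal: every gene named Slc on the array except the Slc2a and Slc16a subfamilies, each read from its brightest probe set by mean log2 signal, and kept where that signal reached 200 on at least 1 array. This gave 171 members of 337 such genes on the array and of 18193 genes in all. The signal limit chose the members, so their presence on the arrays is a description and no finding. Of the 171, 123 reached 200 on all 3 arrays, 17 on 2 arrays and 31 on only 1, and those 31 passed only through the day on which they were bright. Just inside the limit were Slc35d2, Slc36a4 and Slc29a2, with highest signals of 204, 206.7 and 207, and just outside it were Slc48a1, Slc4a8 and the iron exporter Slc40a1, with 197, 190.5 and 186. Of the 166 genes left out, 77 were at or under a floor of 54 on every array.

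The series holds 1 array each of ES cells at day 0, day 1 and day 2 of Gata6 overexpression, the day 0 array being the control, and overexpression had been made to respond to dex, which is read here as dexamethasone. Whether the control cells carried the same modification, and the strain, clone, passage and dose, are not stated in the labels. With 1 array a day there are no replicates and no test. A difference between days is therefore also one between single cultures. An effect of dex itself on the carriers was not tested and cannot be told apart from that of Gata6 here. The values are linear signal intensities, and their median over all probe sets was 84.2, 81.8 and 86.4 on days 0, 1 and 2. Gata6 itself read 109.6, 5573 and 6071. All 8 ES cell markers, Pou5f1 and Nanog among them, read 200 or more on each array, and their summed signal was 120149, 54640 and 46709 on days 0 to 2. Much of these sums was Dppa5a, which stayed near its day 0 signal at 40750, 37048.5 and 36743. Every other ES cell marker was lower on day 2, from 4.89-fold for Pou5f1 to 14.6-fold for Fgf4. Of 8 primitive endoderm markers, 1 (Lamb1) reached 200 on day 0 and all 8 did on days 1 and 2, with sums of 754, 53153 and 94898. The 8 fibroblast markers summed to 597, 330 and 404, and Col1a1, Col3a1, Postn, Dcn and Lum stayed at the floor throughout. The part of these cell states in each carrier's difference was not tested, and in whole cultures fewer cells of a type and less RNA per cell cannot be told apart.

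Solute carriers are membrane proteins that move small molecules and ions across membranes, by facilitated diffusion, exchange or cotransport with an ion gradient. Each numbered subfamily groups proteins of related sequence, which mostly share a kind of substrate. Some sit in the plasma membrane, where they take up nutrients, while others serve the mitochondrion, the lysosome, the Golgi apparatus or secretory vesicles. The primitive endoderm and its visceral and parietal derivatives exchange nutrients between mother and embryo and secrete a thick basement membrane, work that draws on uptake carriers and on carriers of the secretory pathway. Members were placed in substrate groups by subfamily number. Of the 171, 167 are carriers or their subunits, from 44 subfamilies, and 4 have a symbol that starts with Slc but encode no carrier (Slc4a1ap, Slc7a6os, Slc9a3r1 and Slc9a3r2).

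On day 1 against day 0, 24 of the 171 members were higher by 2-fold or more and 15 lower. These are 14.04% and 8.77%, beside 7.36% and 6.77% of the 9468 genes that passed the same signal limit. Of the 123 members that reached 200 on all 3 arrays, 10 (8.13%) were higher and 8 (6.50%) lower, beside 4.23% and 3.39% of the 7663 genes of that kind. Over the 13602 genes above the floor on either array the shares were 6.01% and 6.58%. Slc5a11, a cotransporter of myo-inositol, was at least 7.87-fold higher, and the choline carrier-like gene Slc44a3 was at least 7.39-fold higher. Both were under the floor on day 0, so these folds are lower bounds and the order of the 2 genes is not known. The lowest log2 ratio was that of the arginine and lysine carrier Slc7a3 at -3.54. The median log2 ratio of the members was 0.12, beside -0.01 for all genes past the limit.

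On day 2 against day 0, the counts were 36 higher (21.1%) and 20 lower (11.7%). The share of all genes past the signal limit was 13.7% higher and 11.6% lower, so the lower count stood at the background. Of the 123 members bright on all 3 arrays, 18 (14.6%) were higher and 13 (10.6%) lower, beside 9.21% and 7.91% of such genes, and over the 13865 genes above the floor the shares were 11.1% and 10.1%. The median log2 ratio was 0.41 for the members and -0.07 for all genes past the limit. Slc44a3 was at least 21.5-fold higher and the metal importer Slc39a8 at least 17.4-fold higher, both against a day 0 signal under the floor, which leaves their order unknown. In the other direction, Slc7a3 had a log2 ratio of -3.88, and the exporter of organic cations Slc47a1, under the floor on day 2, was at least 9.69-fold lower, so these 2 cannot be ranked either.

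From day 1 to day 2, 18 members were at least 2-fold higher (10.5%, beside 5.61% of genes past the limit) and 4 lower (2.34%, beside 3.90%). Among members bright on all arrays these were 7 (5.69%) and 1 (0.813%), beside 2.83% and 2.24%. That lower member was Slc20a2, at a log2 ratio of -1.01, and its other probe set had the opposite sign (0.46). The shares over the 13468 genes above the floor were 5.62% and 3.67%. The 3 comparisons share arrays in pairs and are not independent of each other. The only error at hand is the spread of log2 ratios between probe sets of 1 gene, whose SD was 0.50 where the signal was under 200, 0.39 between 200 and 1000, 0.25 between 1000 and 5000 and 0.16 above that. A 2-fold difference is 1 on the log2 scale, which is over 2 of these SDs for signals of 200 or more. The SD covers the spread between probe sets on the same arrays. It does not cover error shared by all probe sets of an array, nor the spread between cultures. Folds against a signal under the floor are lower bounds, given as at least N-fold, and medians use the floored values.

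**Figure D1:**
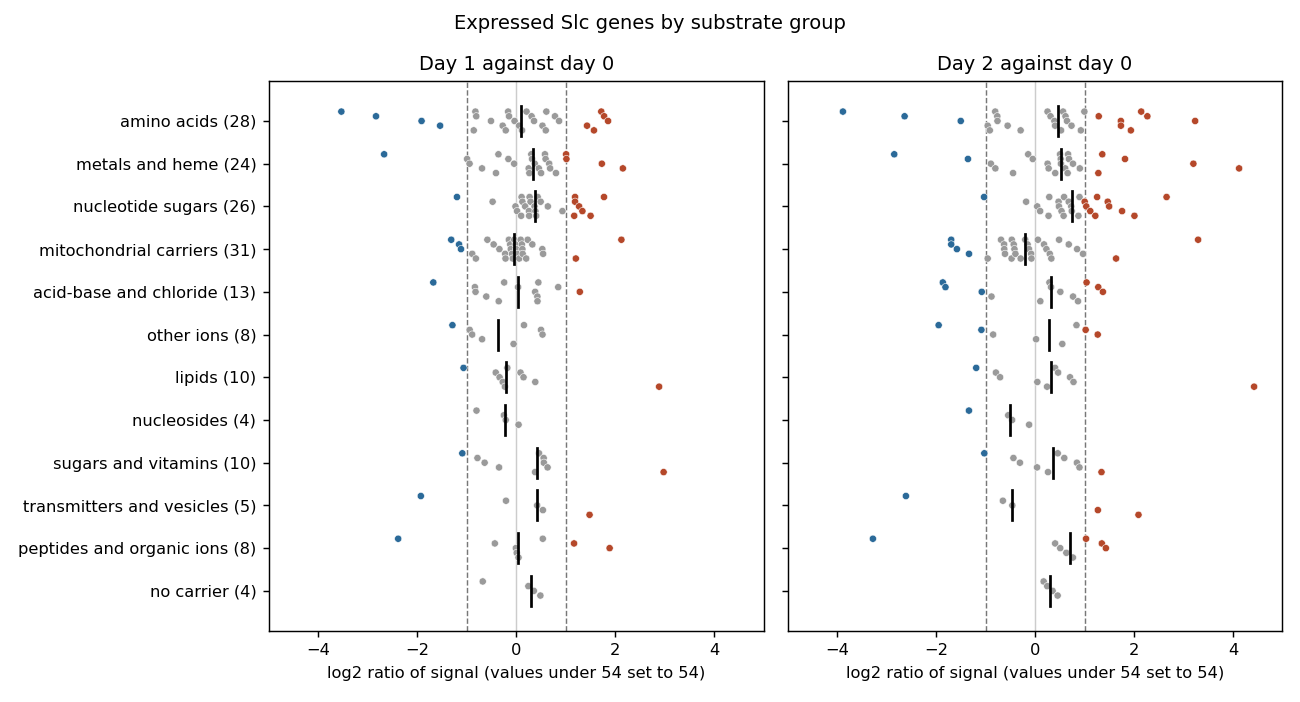
Log2 ratio of each of the 171 members by substrate group (number of members in parentheses), day 1 against day 0 on the left and day 2 against day 0 on the right. Red points are at least 2-fold higher and blue points at least 2-fold lower (dashed lines), and black bars are group medians. On day 2 the nucleotide sugar group has its median at 0.74 and 10 red points, and the mitochondrial group has its median at -0.20 and 2.

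Amino acid carriers formed a group of 28 members, of 53 such genes on the array. On day 2 against day 0, 7 were higher (25%) and 3 lower (10.7%), beside 13.7% and 11.6% of all genes past the limit, so the lower share was near the background. The median log2 ratio was 0.47. The subfamily Slc7 held differences of both signs among proteins with closely related substrates. Its cationic carriers move arginine, lysine and ornithine. Of these, Slc7a3 read 6207 on day 0, 535 on day 1 and 421 on day 2. It was thus bright on day 0 and dim on both later days, 11.6-fold lower on day 1 and 14.7-fold lower on day 2. Slc7a1, the widely expressed carrier of the same amino acids, read 5337, 7698 and 6630.4, a log2 ratio of 0.31 on day 2, so it stayed within 2-fold while Slc7a3 did not. Slc7a2 read 119, 408 and 183 and was bright on day 1 alone, 3.42-fold higher than on day 0. Its other 3 probe sets stayed at or close to the floor. Slc7a4, a relative of these carriers, read 297, 322 and 495. A dimmer, unspecific probe set of Slc7a4 read 112.4, 123 and 75.3. The signs differ on day 2, with log2 ratios of 0.74 and -0.58.

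The light chains of Slc7 work as pairs with a heavy chain, mostly Slc3a2, which brings them to the cell surface. Slc7a7 and Slc7a6 are such light chains that both exchange cationic for neutral amino acids. Slc7a7 read 2923 on day 0, 409.5 on day 1 and 470.3 on day 2, 6.22-fold lower on day 2, and its other probe set had a log2 ratio of -2.42. Slc7a6 ran the other way, reading 452, 1486 and 4261, which was 3.29-fold higher on day 1 and 9.42-fold higher on day 2, with 2.36 on its other probe set. The high and low days of the 2 genes were thus opposite. The heavy chain Slc3a2 read 8111, 4628 and 4177 (log2 ratio -0.96 on day 2), and Slc7a5, the light chain for large neutral amino acids, 3986, 2795 and 2350.4 (-0.76). Both were within 2-fold of day 0. The cystine and dibasic amino acid light chain Slc7a9 read 38.1, 92.8 and 261 and was at least 4.82-fold higher on day 2. Its usual heavy chain, Slc3a1, is no member and stayed under the floor, with a highest signal of 48.1. The cystine and glutamate exchanger Slc7a11 is no member either, with a highest signal of 58.2.

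Of the glutamate carriers, Slc1a1 read 840.3 on day 0, 289 on day 1 and 297 on day 2, while Slc1a3 read 112, 405 and 373. Slc1a1 was lower on both later days, 2.83-fold lower on day 2, with all 3 probe sets between -1.50 and -1.01, and Slc1a3 was 3.33-fold higher, with other probe sets between 0.13 and 2.84. The neutral amino acid exchangers of the same subfamily stood between: Slc1a4 read 404, 228 and 529.8 and Slc1a5, which takes up glutamine, 798, 659 and 472. Slc1a4 was lowest on day 1 and 2.33-fold higher on day 2 than on day 1. Slc43a2, a uniporter of large neutral amino acids, had the same order of days, at 224, 123 and 322. The other probe set of Slc43a2 above the floor read 191, 57.3 and 152.

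Slc6a15, a sodium-dependent carrier of branched-chain amino acids and proline, read 382 on day 0, 1133 on day 1 and 1689.8 on day 2, higher on each later day and 4.42-fold higher on day 2. The taurine carrier Slc6a6 read 3309, 3818 and 2704 and the glycine carrier Slc6a9 542, 529 and 288, both within 2-fold. The Slc38 subfamily carries small neutral amino acids such as glutamine and alanine, and its median was 0.65 on day 2. Of its 7 members 1 (14.3%) passed 2-fold higher, near the 13.7% of all genes past the limit. That member was Slc38a6, at 334, 509 and 1112 (3.33-fold higher). Slc38a2, a carrier known to answer to amino acid supply, read 5792, 10544 and 11561, which at a log2 ratio of 0.997 fell just short of 2-fold. Slc38a4 read 4479, 3862 and 3051 (-0.55) and Slc38a1 2166, 2682 and 2869 (0.41). Of the proton-coupled carriers, Slc36a4 was at least 3.83-fold higher at 43, 145 and 207, close to the signal limit, and the lysosomal Slc36a1 read 327, 292 and 485. Slc66a1, which exports cationic amino acids from the lysosome, read 455, 583 and 1109 and was 2.44-fold higher on day 2. Its relative Slc66a2 read 465, 123 and 266 on an unspecific probe set, dim on day 1 alone. Another of its probe sets had the same order of days, at 261, 93.6 and 234. A dimmer one read 46.6, 66.9 and 179, so the probe sets of this gene differ in sign.

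**Figure D2:**
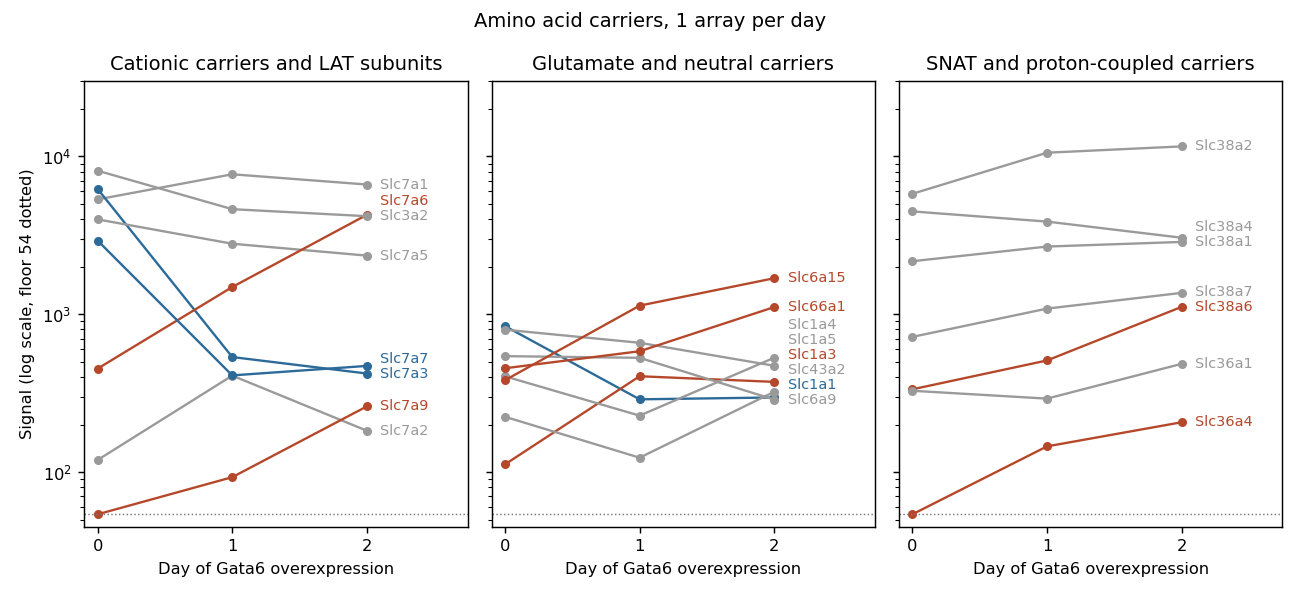
Signal of 23 amino acid carriers (log axis) on days 0, 1 and 2, 1 array per day, with values under 54 drawn at 54. Red lines are genes at least 2-fold higher on day 2 than on day 0, blue lines at least 2-fold lower and grey lines neither; Slc7a3 and Slc7a7 drop by day 1 while Slc7a6 climbs from 452 to 4261. Levels of different genes come from different probes and are not comparable with each other.

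Carriers of metals and heme made up 24 members of 31 on the array. By day 2, 5 of them were higher (20.8%) and 2 lower (8.33%) than on day 0, beside 13.7% and 11.6% of all genes past the limit (median log2 ratio 0.52). The 2 lower members, Slc30a2 and Slc11a1, reached 200 on day 0 alone, so they are members through the day on which they were bright. Cellular zinc is set by 2 subfamilies of opposite direction: Slc39 proteins bring zinc into the cytosol, and Slc30 proteins take it out, to the outside or into organelles. Of the 11 Slc39 members, 3 were higher and 0 lower on day 2. Slc39a8 and Slc39a13 among them reached 200 on day 2 alone, so they are members through the day on which they were bright. Slc39a8, which imports zinc, manganese, iron and cadmium, read 24 on day 0, 179 on day 1 and 942 on day 2. It was under the floor on day 0 and brighter on each day after, at least 3.31-fold higher on day 1 and at least 17.4-fold higher on day 2. Its second probe set gave a log2 ratio of 3.08 on day 2. Slc39a7, which releases zinc from the endoplasmic reticulum and Golgi, read 1605, 3223 and 4117 on an unspecific probe set (2.57-fold higher on day 2), and Slc39a13, another intracellular zinc carrier, 122, 196 and 297 (2.43-fold higher). The remaining Slc39 members were within 2-fold on day 2. Among them, the zinc importer Slc39a10 read 1907, 2468 and 2733 (0.52), the intestinal zinc importer Slc39a4 read 1266, 985 and 682 (-0.89) and Slc39a14, which also takes up iron, 619, 383 and 355 (-0.80).

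Of the 8 Slc30 members, 2 were higher (25%) and 1 lower (12.5%) on day 2, beside 13.7% and 11.6% of all genes past the limit. The lower share was thus near the background. Slc30a4, which loads zinc into vesicles, read 103 on day 0, 456 on day 1 and 943 on day 2. It was 9.19-fold higher on day 2, and its day 1 signal lay between the others. Slc30a7, of the early secretory pathway, read 258, 519.7 and 908 and was 3.53-fold higher, with 1.32 on the log2 scale from its second probe set. Slc30a2, also a vesicular zinc carrier, went the other way at 781, 123 and 109, 7.18-fold lower, and was dim on both later days. The plasma membrane exporter Slc30a1 read 939, 488 and 853, lowest on day 1 and within 2-fold throughout. Slc30a5 and Slc30a6, which work as a pair in the secretory pathway, read 1279, 1928 and 2057 and 631, 757 and 611.

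Slc11a2, which imports ferrous iron, read 513, 814 and 783 and Slc25a28, which carries iron into mitochondria, 954, 820.1 and 708. Both were within 2-fold on the chosen probe sets. The other, dimmer Slc11a2 probe sets had log2 ratios between 0.46 and 1.67 on day 1 and between 0.20 and 1.04 on day 2. Whether Slc11a2 passed 2-fold thus depends on the probe set. Slc11a1, a phagosomal metal carrier known from macrophages, read 229, 115 and 89.3 (2.56-fold lower on day 2). The copper importer Slc31a1 read 690, 820.2 and 1292 (0.91) and Slc31a2 265, 374 and 418 (0.66).

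**Figure D3:**
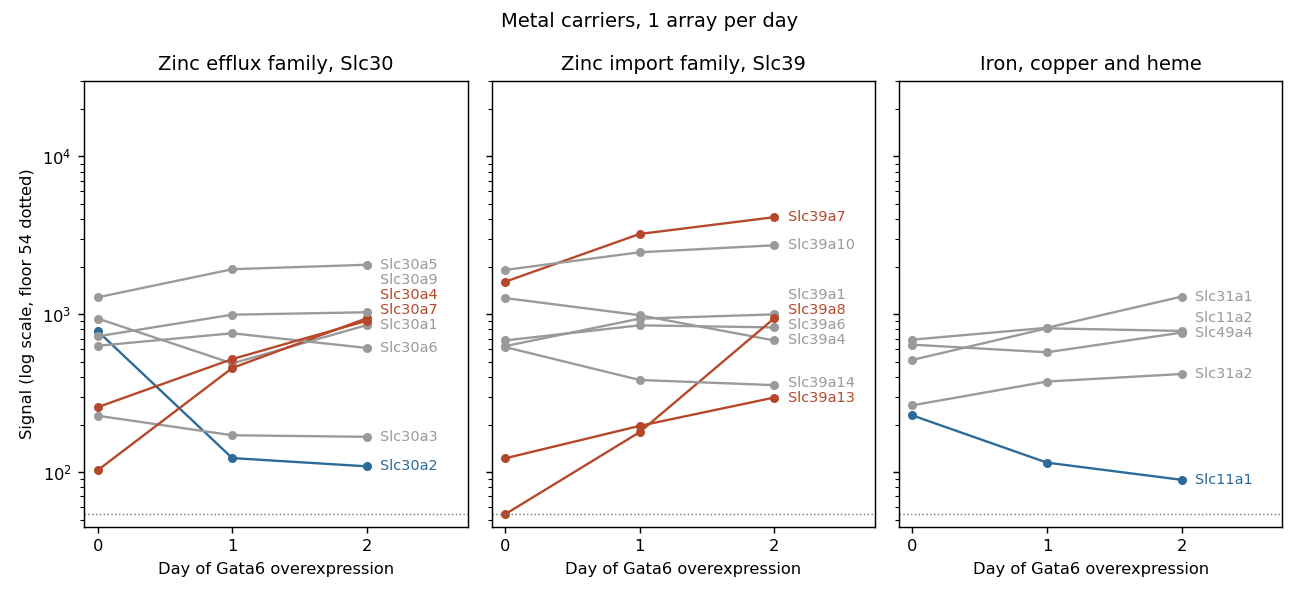
Signal of 21 metal carriers (log axis) on days 0, 1 and 2, 1 array per day, drawn and coloured by the day 2 against day 0 ratio as red (at least 2-fold higher), blue (at least 2-fold lower) or grey. Slc39a8 leaves the floor after day 0 and reaches 942, Slc30a4 goes from 103 to 943, and Slc30a2 drops from 781 to 109.

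Carriers of nucleotide sugars, acetyl-CoA and sugar phosphates, subfamilies Slc33, Slc35 and Slc37, held 26 members of 31 on the array. The best known of them supply the endoplasmic reticulum and Golgi with donors for glycosylation, sulfation and acetylation, while others have no settled substrate. On day 2, 10 were higher (38.5%) and 1 lower (3.85%), beside 13.7% and 11.6% of all genes past the limit. A log2 ratio above 0 was seen for 24 of the 26, with a median of 0.74, beside 4379 of the 9468 genes. In the day 1 comparison with day 0, 26.9% of these carriers (7) passed 2-fold higher and 3.85% (1) passed 2-fold lower. The matching shares of all genes past the limit were 7.36% and 6.77%. Median log2 ratios in that comparison were 0.38 for the carriers and -0.01 for those genes. Slc33a1, which brings acetyl-CoA into the endoplasmic reticulum, read 149 on day 0, 509 on day 1 and 939.9 on day 2, brighter on each later day and 6.31-fold higher on day 2. The orphan members Slc35e3 and Slc35f5 had the same order of days, at 417, 1004 and 1677 (4.03-fold higher) and 587, 1336 and 1985 (3.38-fold higher). Neither has a substrate that is stated here.

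Of the members with a known donor, Slc35b3, a Golgi carrier of the sulfate donor PAPS, read 409, 932 and 977 and was 2.39-fold higher on day 2. Slc35a3, which carries UDP-N-acetylglucosamine, read 611, 789 and 1253 (2.05-fold higher), and Slc35d1, which carries UDP-glucuronic acid, 211, 402 and 457 (2.17-fold higher). The dim second probe set of Slc35d1 had a log2 ratio of -0.46, so its sign was not shared. Slc35a1, for CMP-sialic acid, had a log2 ratio of 0.59, Slc35a2, for UDP-galactose, 0.73, Slc35c1, for GDP-fucose, 0.48 and Slc35b2, the other PAPS carrier, 0.29. On the chosen probe sets these 4 were above 0 and under 2-fold. The other Slc35a2 probe sets lay between 0.84 and 1.92. Whether Slc35a2 passed 2-fold thus depends on the probe set. Slc35b1, which imports ATP into the endoplasmic reticulum, read 2896, 4072 and 4845 (0.74). Further members past 2-fold were Slc35f6 (2.33-fold higher), Slc35g1 (2.00-fold higher, with its highest signal of 2358 on day 1) and Slc35e4, which was 2.77-fold higher on an unspecific probe set while its 2 other probe sets were under the floor. The lower member was Slc35f2, at 503, 219 and 247 (2.04-fold lower). Slc37a4, which carries glucose-6-phosphate into the endoplasmic reticulum, read 259.7, 735 and 733, 2.82-fold higher on day 2 with the later days alike. Its relative Slc37a2, also of the endoplasmic reticulum, read 128, 288 and 191 and was brightest on day 1, 2.25-fold higher than on day 0.

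The Slc25 subfamily carries metabolites across the inner mitochondrial membrane and held 31 members of 44 on the array. On day 2, 2 were higher (6.45%) and 4 lower (12.9%), beside 13.7% and 11.6% of all genes past the limit, so the lower share was near the background. The median log2 ratio was -0.20, beside -0.07 for all those genes. The phosphate carrier Slc25a3 read 23672 on day 0, 22534 on day 1 and 21329 on day 2. The ADP/ATP carriers Slc25a4 and Slc25a5 read 11574, 12601 and 14225 and 23076, 21737 and 18867, and the germ cell form Slc25a31 271, 214 and 176. All 4 stayed within 2-fold on each day. The higher members were Slc25a24, a calcium-regulated carrier of ATP-Mg and phosphate, and Slc25a22, a glutamate carrier. Slc25a24 read 104, 455 and 1025 and was 9.82-fold higher on day 2, with 2.12 on the log2 scale from its second probe set. Slc25a22 read 296, 682 and 921 (3.11-fold higher).

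Of the 4 lower mitochondrial members, Slc25a12 exchanges aspartate for glutamate and read 2229.7 on day 0, 1027 on day 1 and 689 on day 2, 3.24-fold lower on day 2, with 3 probe sets between -1.79 and -0.79. Its close relative Slc25a13 read 3097, 3292 and 2009 (-0.62), within 2-fold. Slc25a33 and Slc25a36 both carry pyrimidine nucleotides and were 2.99-fold lower and 2.52-fold lower on day 2. Slc25a36 read 4668, 2649 and 1852, and its 3 probe sets lay between -1.48 and -1.33. Slc25a40 was 3.23-fold lower at 2189.6, 879.8 and 677, and its relative Slc25a39, with which it is linked to mitochondrial glutathione import, read 23408, 15609 and 14536 (-0.69) on an unspecific probe set. The other Slc25a39 probe sets above the floor lay between -1.21 and -0.90 on day 2, near or past 2-fold lower. Slc25a20, which brings acylcarnitines in for fatty acid oxidation, was brightest on day 1, at 3478, 4353 and 2283. Slc25a11, which exchanges oxoglutarate for malate, read 2557, 2554 and 2899 (0.18). The citrate carrier Slc25a1 read 1910.3, 1390.2 and 1755 (-0.12).

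**Figure D4:**
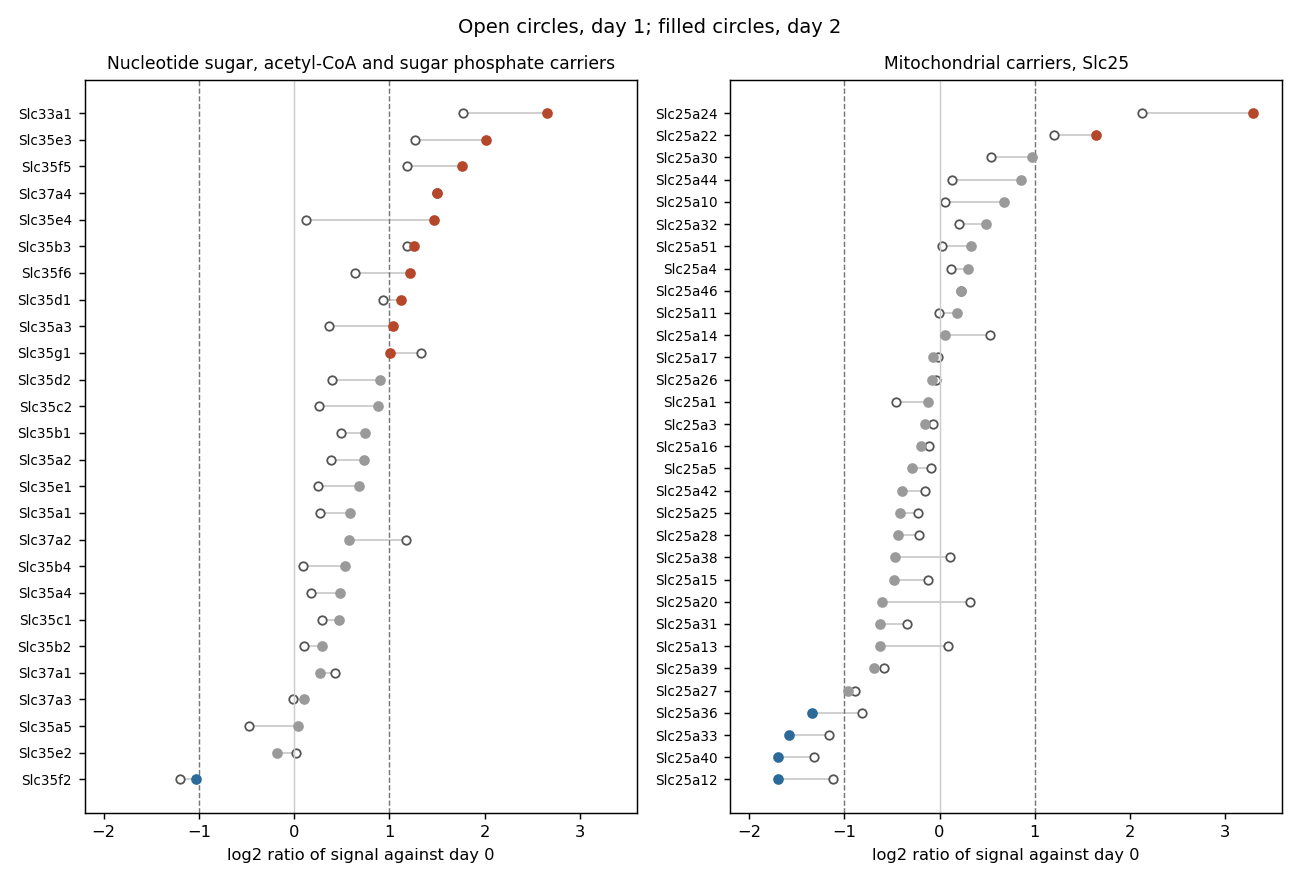
Log2 ratio against day 0 for the 26 nucleotide sugar, acetyl-CoA and sugar phosphate carriers (left) and the 31 mitochondrial carriers (right), with open circles for day 1 and filled circles for day 2. Filled circles are red where at least 2-fold higher and blue where at least 2-fold lower (dashed lines); 24 of 26 on the left lie above 0 on day 2, and the mitochondrial median is -0.20.

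Carriers of chloride and of acid and base held 13 members of 36 on the array, of which 3 were higher and 3 lower on day 2, 23.1% each (median log2 ratio 0.32). In this and the smaller groups that follow, 1 member is a large share, and the counts stand beside the same 13.7% higher and 11.6% lower of all genes. Among the members past 2-fold in them, Slc4a4, Slc9b2, Slc24a3, Slc34a3, Slc5a11, Slc52a3, Slc17a9 and Slc18a1 reached 200 on only 1 array. They are members through the day on which they were bright. The cotransporters of chloride with cations are split by direction of transport. Slc12a2, which brings sodium, potassium and chloride in, read 1330.1 on day 0, 2392 on day 1 and 3226 on day 2, brighter on each later day and 2.43-fold higher on day 2, with 3 probe sets between 1.18 and 1.95. Slc12a7, which takes potassium and chloride out, read 2041, 1153 and 968 (2.11-fold lower, with -0.51 from its other probe set). Slc12a4, of the same outward kind, read 353, 232 and 380.4 (0.11). The bicarbonate cotransporter Slc4a4 was 2.59-fold higher at 89, 121 and 230.3, and the sulfate carrier Slc26a2, which supplies sulfation of matrix proteoglycans, 2.06-fold higher at 687, 579 and 1413. The 3 Slc26a2 probe sets lay between 1.04 and 1.27. The proton antiporters Slc9b1 and Slc9b2 were lower: Slc9b1 read 889.5, 498 and 254 (3.51-fold lower) and Slc9b2 243, 76 and 66.8. The day 2 signal of Slc9b2 was under 72.3, the 95th percentile of olfactory and vomeronasal receptor genes that served as background, so no exact fold is given for it. Slc9a5, a sodium and proton exchanger, was bright on day 1 alone, at 99.7, 243 and 122.

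Carriers of phosphate, calcium, citrate and magnesium held 8 members of 24, with 2 higher and 2 lower on day 2. The sodium-phosphate cotransporters Slc20a1 and Slc20a2 import phosphate. Slc20a1 read 5950 on day 0, 3683 on day 1 and 3309 on day 2 (-0.85 on day 2), and Slc20a2 read 1843, 959 and 478, 3.86-fold lower. A second Slc20a2 probe set read 895, 521.5 and 717, with a log2 ratio of -0.32, so the size of this difference rests on the chosen probe set. Slc34a3, another phosphate carrier, read 231, 94.4 and 109 (2.12-fold lower). Slc24a3, an exchanger of sodium for calcium and potassium, read 118, 63.4 and 283, lowest on day 1, and the citrate importer Slc13a5 read 513, 740.1 and 1042 (2.03-fold higher). The magnesium carrier Slc41a1 read 708, 681 and 719.

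Lipid-related carriers held 10 members of 16 on the array. By day 2, 1 was higher and 1 lower (median log2 ratio 0.32). Both belonged to Slc44, named for choline carriers. Slc44a3 read 42.5 on day 0, 399 on day 1 and 1162 on day 2. It was under the floor on day 0, at least 7.39-fold higher on day 1 and at least 21.5-fold higher on day 2, from its single probe set. Slc44a2 read 983, 777 and 431 on an unspecific probe set (2.28-fold lower), with -0.68 and -0.65 from the 2 others, and Slc44a1, the main choline carrier of the subfamily, 2564, 2261 and 1483 (-0.79). Slc44a4 read 249, 264 and 153. On the chosen probe sets, the fatty acid transport proteins of Slc27 had a low day 1 in 3 of 4 cases. Slc27a2 read 561, 268 and 664, Slc27a3 186, 139.5 and 319 and Slc27a1 182, 155 and 242. The other probe set of Slc27a1 read 219.8, 169.7 and 137.1 and was lowest on day 2, so this order was not shared. Slc27a2 and Slc27a3 were 2.48-fold higher and 2.29-fold higher on day 2 than on day 1, and within 2-fold of day 0. Slc27a4 read 414, 539.6 and 675. The bile acid carrier relatives Slc10a3 and Slc10a7 read 201, 223 and 278 and 477, 394 and 493.

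On the chosen probe sets, the 4 nucleoside carriers, of 6 on the array, had day 2 log2 ratios below 0, with a median of -0.50. Ratios below 0 were common, as 4379 of the 9468 genes past the limit were above 0 (median -0.07). Only 1 of the 4 passed 2-fold. This was Slc29a1, the main equilibrative nucleoside carrier of the plasma membrane, at 9949 on day 0, 5695 on day 1 and 3943 on day 2. Its signal was lower on each later day, 2.52-fold lower on day 2. Slc29a2 read 207, 178 and 150 (-0.46) and the lysosomal Slc29a3 701, 589 and 481 (-0.54). A dimmer, unspecific probe set of Slc29a2 had a log2 ratio of 0.29, so its sign was not shared. Slc29a4, which also carries monoamines, read 477, 492 and 439 (-0.12) on an unspecific probe set. Slc43a3, a purine base carrier, was under the signal limit at 65.7, 153 and 173.

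Of 10 carriers of sugars and vitamins, 1 was higher and 1 lower on day 2. The myo-inositol carrier Slc5a11 read 49.1 on day 0, 425 on day 1 and 137 on day 2, brightest on day 1. It was at least 7.87-fold higher on that day than on day 0, and on day 2 it was at least 2.54-fold higher. The riboflavin carrier Slc52a3 read 316, 148 and 155 (2.03-fold lower). The thiamine carrier Slc19a2 read 1544, 1212 and 2877 and was 2.37-fold higher on day 2 than on day 1. The folate carriers Slc19a1 and Slc46a1 had log2 ratios of 0.26 and 0.46, and the ascorbate carrier Slc23a2 -0.44, all within 2-fold.

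Of 5 carriers of vesicles and transmitters, 2 were higher and 1 lower on day 2. Slc17a5, which exports sialic acid from lysosomes, read 188 on day 0, 524 on day 1 and 801 on day 2, 4.26-fold higher on day 2. Slc17a9, which loads nucleotides into vesicles, read 746, 196 and 122, 6.10-fold lower, with -2.04 from its other probe set. These relatives thus differed in opposite directions, bright on different days. The creatine carrier Slc6a8 read 2396, 2073 and 1744 (-0.46). Slc18a1, a vesicular monoamine carrier, was 2.41-fold higher with a day 2 signal of 272. Slc18b1, a vesicular polyamine carrier, read 234, 340.1 and 149, was brightest on day 1 and was 2.28-fold lower on day 2 than on that day.

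Of 8 carriers of peptides and organic ions, 3 were higher and 1 lower on day 2. Slc47a1, Slco3a1 and Slco4c1 among them reached 200 on only 1 array, so they are members through the day on which they were bright. Slc47a1, which expels organic cations with proton exchange, read 523 on day 0, 100 on day 1 and 22.9 on day 2. It was under the floor on day 2 and at least 9.69-fold lower. The higher ones were Slco3a1 (98.1, 72.6 and 265), Slc22a23 (112, 250.3 and 284) and Slco4c1, an organic anion carrier that was brightest on day 1 (90, 333 and 184). Slc15a4, a lysosomal carrier of histidine and peptides, read 431, 428 and 613 (0.51). The carnitine carrier Slc22a5 read 221, 320.3 and 376 (0.77). Among the 4 genes that encode no carrier, the scaffold protein Slc9a3r1 read 2040.3, 1275 and 2609 and was 2.05-fold higher on day 2 than on day 1. On the chosen probe sets, 0 of them passed 2-fold against day 0. The second probe set of Slc7a6os read 86.4, 226.2 and 487.7. Its log2 ratio was 2.50 on day 2, against 0.17 for the chosen one, so the reading of this gene depends on the probe set.

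Promoters were read because GATA factors bind a known short motif. Promoter windows of RefSeq genes (assembly GRCm38.p6, 250 bases before to 50 after a start) were searched on both strands for the letters GATA with A or T before them and A or G after them, and 135 members had at least 1 window. The motif was in 20.9% of the 43 windows of members higher on day 2, 17.9% of the 28 of lower members and 16.5% of the 115 of the others, beside 29.8% of all 32851 windows. A motif of 6 letters is common, and a match is a description of these letters only. Of the 10 members at least 4-fold higher on day 2, 9 had a window and 4 of these held a match. A window of each of these 4 is shown 5′ to 3′ on the gene's strand, to let the matches, in capitals, be read in place.
Slc39a8 (chr3:135825407-135825706, plus strand): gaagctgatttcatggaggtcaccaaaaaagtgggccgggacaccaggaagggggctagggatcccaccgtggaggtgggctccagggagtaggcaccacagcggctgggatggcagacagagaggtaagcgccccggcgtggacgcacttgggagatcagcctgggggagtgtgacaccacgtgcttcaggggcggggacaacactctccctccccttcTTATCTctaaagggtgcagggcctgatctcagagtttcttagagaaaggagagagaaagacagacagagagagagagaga
Slc33a1 (chr3:63964684-63964983, minus strand): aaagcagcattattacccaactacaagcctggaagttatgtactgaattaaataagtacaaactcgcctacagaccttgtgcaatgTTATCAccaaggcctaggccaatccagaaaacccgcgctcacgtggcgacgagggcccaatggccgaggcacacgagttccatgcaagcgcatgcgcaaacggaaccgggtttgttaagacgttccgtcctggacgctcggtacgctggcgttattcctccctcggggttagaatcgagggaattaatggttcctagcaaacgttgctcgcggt
Slc7a9 (chr7:35448842-35449141, plus strand): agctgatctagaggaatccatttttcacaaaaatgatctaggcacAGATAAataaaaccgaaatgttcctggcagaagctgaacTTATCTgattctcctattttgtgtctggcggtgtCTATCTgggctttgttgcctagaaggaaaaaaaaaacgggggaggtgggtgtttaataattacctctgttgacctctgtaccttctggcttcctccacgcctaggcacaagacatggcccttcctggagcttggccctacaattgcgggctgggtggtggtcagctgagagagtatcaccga
Slc17a5 (chr9:78587996-78588295, minus strand): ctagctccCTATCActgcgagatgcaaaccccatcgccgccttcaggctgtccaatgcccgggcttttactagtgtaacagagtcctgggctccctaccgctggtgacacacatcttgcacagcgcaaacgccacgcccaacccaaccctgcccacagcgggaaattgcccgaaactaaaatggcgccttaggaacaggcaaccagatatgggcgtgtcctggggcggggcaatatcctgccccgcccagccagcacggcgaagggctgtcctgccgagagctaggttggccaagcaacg
The match in Slc39a8 begins 30 bases before the start, that in Slc33a1 164 bases, and that in Slc17a5 242 bases. Slc7a9 has 3, beginning 205, 166 and 132 bases before it. Another start of Slc39a8, whose window begins at base 135825029, had no match, and neither did the windows of Slc44a3, Slc25a24, Slc7a6, Slc30a4 and Slc35e3.

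The probe sets of a gene gave a check within these arrays. Of the 36 members higher on day 2, 16 had several probe sets above the floor, and these had the same sign for 15, the exception being Slc35d1. Of the 20 lower members, 9 had several, and all 9 agreed in sign. Of the 40 other probe sets of 2-fold members, 39 had the sign of the chosen one and 24 were closer to 0. The chosen probe set, the brightest, had the wider ratio in those 24 cases, and 69 of the 171 members had a single probe set and no such check. In the other comparisons the exceptions in sign were Slc66a2, lower on day 1 against day 0, and Slc20a2, lower on day 2 against day 1.

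**Figure D5:**
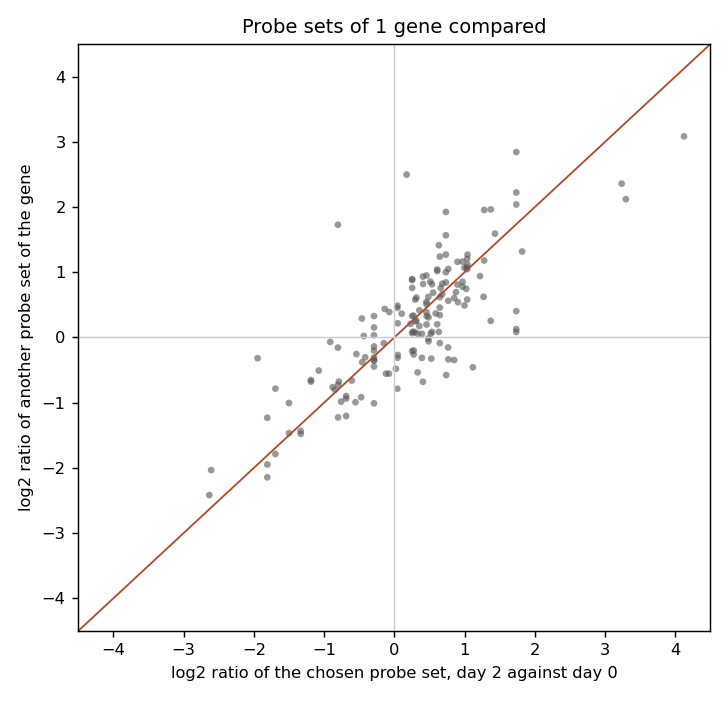
Log2 ratio at day 2 against day 0 of the chosen probe set of a member (horizontal axis) and of each other probe set of the same gene above the floor (vertical axis), for 160 probe sets of 94 members. The red line marks equal ratios; of the 40 points at least 2-fold from 0 on the horizontal axis, 39 share the sign of the chosen probe set.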

How the data were processed

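Expression was measured on Affymetrix mouse arrays from total RNA, with 1 array per day. The deposited values are linear intensity per probe set. They came from MAS5, per the submitters' processing notes, with no version or scaling target stated in the labels. Among 45101 probe sets, 64 were controls, 34945 named 1 gene, 932 several and 9160 none. Symbols came from the platform annotation, and all 171 members matched a RefSeq gene identifier. The deposited scale was kept (trimmed means of 497 to 498), values under 54 were set to 54, and log2 was taken. A gene was read from its brightest probe set by mean log2 signal. Higher or lower means at least 2-fold with the brighter array above the floor. No test was possible. Members and lists were chosen with earlier results of these data known. Named members are those at least 2-fold different in any comparison, those with the highest mean signal, the brightest and widest of each substrate group, all lipid and nucleoside carriers and those beside the limit; genes outside this rule are relatives named beside them, chosen after their values were seen. Alternatives changed the floor, scaling, probe sets, signal limit and fold. The counting was tested on simulated data. Tools were Python 3.11.15, pandas 2.3.3 and limma 3.58.1 (quantile and cyclic loess alternatives). The number of arrays limits the precision.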

Additional observations from a re-analysis of the deposited data

How the results depend on the processing

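Of 96 counts and medians recomputed under other settings, 81 stayed close to the values given (counts within 1.5-fold, medians within 0.1). With a 3-fold threshold the members higher and lower numbered 10 and 7 on day 1 against day 0, 16 and 10 on day 2 against day 0, and 3 and 1 on day 2 against day 1. With members limited to a signal of 200 on all arrays they numbered 10 and 8, 18 and 13, and 7 and 1, and the day 2 against day 0 median was 0.298. That median was 0.273 with means over probe sets. A pseudocount of 54 in place of the floor left 2 members lower on day 2 against day 1. Of the 117 ratios of 2-fold members in the 3 comparisons, 0 reversed under any of the 8 alternatives run on them; 115 kept their sign with a floor at 146, the 60th percentile of all values, and also with unspecific probe sets left out, the others becoming equal, and 117 under each of the other 6. Still past 2-fold were 88 with the pseudocount, 92 with the floor of 146 and 93 with means over probe sets. The other scaling of all arrays moved the median of all genes past the limit by less than 0.1. Dim signals had a wider spread between probe sets than bright ones, and with 1 array per day the spread between cultures is unknown.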

Other observations

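Among the Slc genes that stayed under the signal limit of 200, 89 were above the floor on at least 1 array and 15 of these differed at least 2-fold in at least 1 comparison. On day 2 against day 0, 5 were higher and 7 lower of 83 compared (6.02% and 8.43%), beside 11.1% and 10.1% of all genes above the floor, and their low signals leave little room for a 2-fold difference. The peptide carrier Slc15a1 read 158 on day 0 and was under the floor on both later days, at 35.1 and 29.4. Slc51a, a subunit of the steroid and bile acid carrier, read 138, 50.8 and 46.3. The organic anion carrier Slco2b1 read 144.5, 122 and 32.8. In the other direction, Slc26a11, an anion exchanger, read 65.9, 138 and 169. Slc38a5, a glutamine carrier, read 49, 157 and 38.9 and was above the floor on day 1 alone. These genes were chosen after their values were seen.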
